A study of Mus musculus with 12 samples.

Results

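Reactive astrocyte markers are genes whose transcripts rise when astrocytes respond to injury, inflammation or protein aggregation. The 10 genes described here were Gfap, Vim, Serpina3n, Chil1, Lcn2, Cd44, Osmr, Il33, Cp and S100b. All were taken by name from a list of such markers, chosen with earlier results of these data known. They were matched by symbol to mouse Ensembl identifiers, and all 10 were found among the 32783 genes with a count in either of the tables used. All 10 also passed the filter on low counts in every comparison below. The libraries came from the hippocampus of male C57Bl6/J mice, injected at 2 months of age on both sides into the CA1 field and examined at 4 months. Control mice received the viral vector AAV2/9-GfaABC1D-Bglob-GFP-WPRE (AAV-GFP) and the others AAV2/9_GfaABC1D-Bglob-A2AR-WPRE (AAV-A2A), which carries the mouse adenosine A2A receptor. Both vectors are driven by GfaABC1D, a shortened GFAP promoter that acts mainly in astrocytes, and it derives from the human counterpart of Gfap, the first marker here. No uninjected mice were analysed here, and both groups received an injection and a vector with its own payload.

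Astrocytes were retained from dissociated hippocampi with beads against ACSA-2, an astrocyte surface antigen, and microglia were then taken from the unbound cells with beads against CD11b, a surface integrin of microglia and other myeloid cells. Each fraction had 3 AAV-GFP libraries (GFP-303, GFP-306 and GFP-307 for ACSA-2, GFP-2328, GFP-2329 and GFP-2331 for CD11b) and 3 AAV-A2A libraries (A2A-309, A2A-310 and A2A-313 for ACSA-2, A2A-2343, A2A-2344 and A2A-2347 for CD11b). The libraries of the fractions carry different numbers and stand in separate tables, so a difference between fractions cannot be told apart from one between the tables. Levels are given as CPM, a gene's share of the reads of its library after scaling within a fraction, and as RPKM, the same share per kilobase of exon, where genes are compared with each other. Because the samples are bulk RNA, fewer cells of a type and less RNA per cell cannot be told apart.

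The intermediate filament network of astrocytes is built mainly from GFAP and vimentin, and both accumulate in reactive cells. Reactive astrocytes also release proteins. Serpina3n is an inhibitor of serine proteases, Chil1 (chitinase-like protein, YKL-40 in humans) is a carbohydrate-binding protein without chitinase activity, Lcn2 (lipocalin 2) binds iron-carrying siderophores and Cp (ceruloplasmin) oxidizes iron. Il33 is a nuclear alarmin cytokine that can be released by damaged cells, and S100b is a calcium-binding protein. Cd44 is a receptor for hyaluronan in the cell coat, and Osmr is the receptor subunit for oncostatin M that pairs with gp130 (Il6st) and signals through STAT3.

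The total count on genes was 33937067 to 49217553 per ACSA-2 library and 36098295 to 53206974 per CD11b library. Adora2a, the gene carried by the vector, was 22.96 to 25.1 CPM in the ACSA-2 AAV-GFP libraries and 656 to 945 CPM in the AAV-A2A ones (log2 fold change (FC) 5.02, SE 0.21, adjusted p = 1.55e-05). In CD11b libraries, in the order above, it was 3.96, 4.79 and 8.07 CPM with AAV-GFP and 17.8, 43.3 and 16.3 CPM with AAV-A2A. These groups did not overlap, but the difference was not called (log2 FC 2.20, SE 0.54, adjusted p = 0.280). The source of these reads was not tested. The summed level of 14 genes by which astrocytes are known (Aqp4, Aldoc, Gja1 and others) was 31768 to 50005 CPM in ACSA-2 libraries and 826 to 1746 CPM in CD11b libraries, and that of 9 microglial markers 260.2 to 478 CPM and 7806 to 58366 CPM, respectively. Of the markers of other cell types in ACSA-2 libraries, 3 markers of oligodendrocyte precursors, mostly Cspg4, summed to 190.1 to 296 CPM with AAV-GFP and 50.4 to 75.4 CPM with AAV-A2A. Cspg4 alone was 186 to 290.3 CPM and 45.7 to 70.5 CPM. Of the 3 markers 2 could be tested, and the other had a log2 FC of -0.39 and was not called. The 6 choroid plexus markers were 554 to 614 CPM with AAV-GFP and 611 to 1009 CPM with AAV-A2A, with overlap. The CD11b libraries did not form 2 groups by vector. GFP-2328, GFP-2329 and A2A-2347 held 76725, 62217 and 31922 CPM of the choroid plexus markers (mostly Ttr), against 92.1, 69.0 and 9.25 CPM in GFP-2331, A2A-2343 and A2A-2344, and these libraries were separated along the first principal component (60.8% of the variance). Results on CD11b cells are therefore also given without the 3 choroid-rich libraries, an alternative chosen after the values were seen. The part of these other cells in the results was not tested.

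In ACSA-2 cells 2 of the 10 genes, Serpina3n and Chil1, were higher with AAV-A2A than with AAV-GFP and none was lower, with calls made at an adjusted p below 0.05 and a log2 FC beyond 0.32 in size. Serpina3n was 3.81 times and Chil1 1.94 times its control level. Over all 16451 genes tested, 0.176% were called higher and 3.19% lower. The other 8 genes did not pass, and the positive log2 FC of Gfap, Il33, Vim, Cd44, S100b and Lcn2 and the negative one of Osmr are given below as values. The median log2 FC was 0.63 over the 10 genes and 0.02 over all genes tested, and 5 of the 10 had groups without overlap between the 3 and 3 libraries (4 higher, 1 lower), against 19.6% of all genes tested in either direction.

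**Figure D1:**
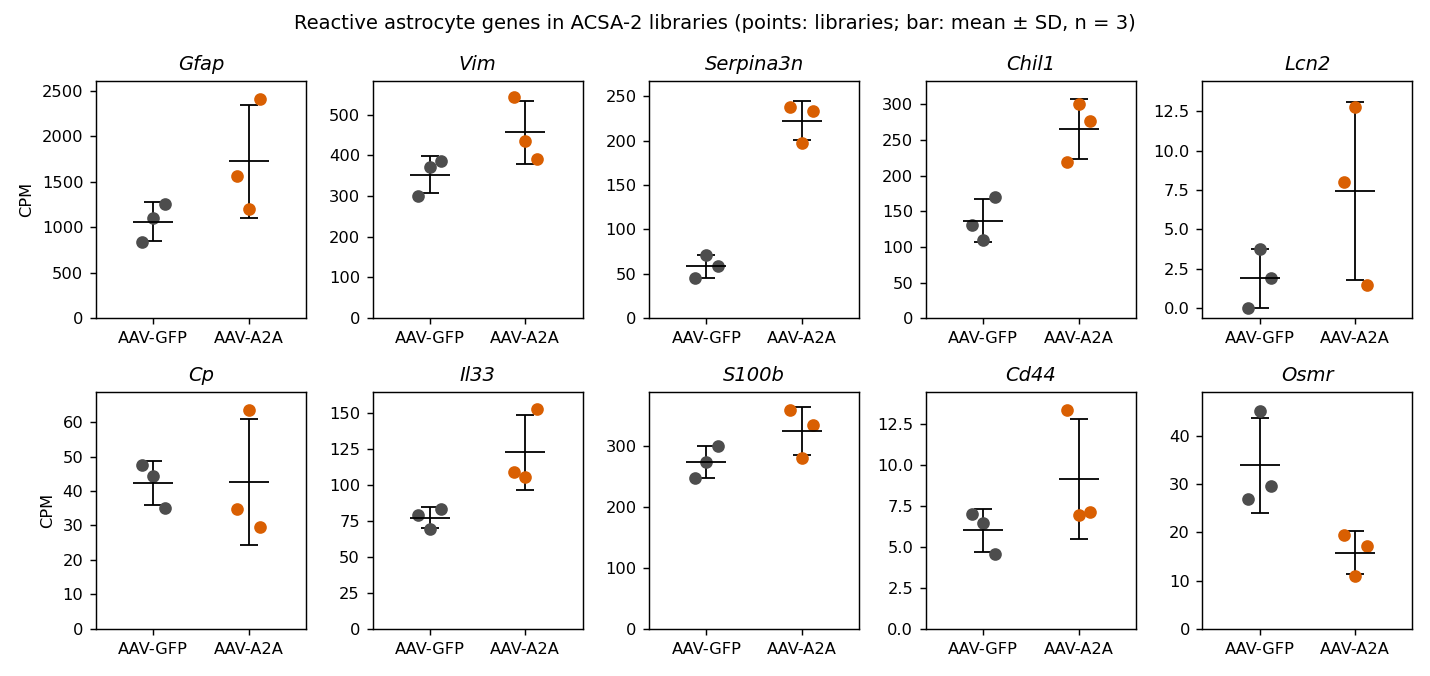
CPM (linear axes from about 0) of the 10 genes in the 6 ACSA-2 libraries. Points are libraries and bars the mean ± SD of 3. All 3 AAV-A2A points lie above all AAV-GFP points for Vim, Serpina3n, Chil1 and Il33 and below them for Osmr, and the other 5 genes overlap.

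Among the secreted proteins, Serpina3n (ENSMUSG00000021091, chr12:104406729-104414329, plus strand, GRCm38) was 45.2, 71.6 and 58.3 CPM in GFP-303, GFP-306 and GFP-307. It was 237, 197 and 233 CPM in A2A-309, A2A-310 and A2A-313. The lowest AAV-A2A library thus stood far above the highest control, and the AAV-A2A libraries lay closer together (223 ± 21.9 CPM, SD, n = 3) in proportion than the controls (58.4 ± 13.2 CPM, SD, n = 3). The log2 FC was 1.93 (SE 0.21, adjusted p = 0.00212), and 98.2% of the genes tested had a lower log2 FC. Serpina3n passed in all 14 alternatives to this fit, including each of the 6 that left out 1 library (log2 FC 1.76 to 2.10). Serpina3n belongs to a cluster of related genes, and 6.9% of its 2015 stretches of 50 bases, the read length, occur in transcripts of others such as Serpina3g and Serpina3c. Reads from those stretches may not have been unique, and would then not have been counted. Of the 10 related Serpina3 genes listed, none passed the filter on low counts in ACSA-2 cells.

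Chil1 (ENSMUSG00000064246, chr1:134182176-134190181, plus strand) was 130.4, 110.3 and 170.5 CPM in the controls in the same order. The AAV-A2A libraries gave 219, 300.1 and 277 CPM. No AAV-A2A library fell within the control range, the nearest pair being GFP-307 and A2A-309. Chil1 had a log2 FC of 0.95 (SE 0.21), and its adjusted p of 0.0411 was close to the threshold of 0.05. It passed without GFP-307 (adjusted p = 0.0453) and without A2A-309 (0.0494), but not without GFP-303 (0.154), GFP-306 (0.191), A2A-310 (0.162) or A2A-313 (0.116), at log2 FCs of 0.82 to 1.13, nor in the fit of all 12 libraries (0.542). With DESeq2 and limma-voom the adjusted p was 0.00117 and 0.0289. No stretch of 50 bases of its transcripts was shared with another gene. Of 6 other chitinase or chitinase-like genes, Chia1 was the 1 that could be tested in ACSA-2 cells (log2 FC -0.24, adjusted p = 0.926).

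The sequences before the start sites of the 2 genes that rose, and of Gfap, whose human counterpart gave the promoter of both vectors, are shown for comparison as 250 bases upstream of the RefSeq start (GRCm38.p6), 5′ to 3′ on the gene's own strand, with CCAAT on either strand in capitals.
Serpina3n, chr12:104406458-104406707, plus strand: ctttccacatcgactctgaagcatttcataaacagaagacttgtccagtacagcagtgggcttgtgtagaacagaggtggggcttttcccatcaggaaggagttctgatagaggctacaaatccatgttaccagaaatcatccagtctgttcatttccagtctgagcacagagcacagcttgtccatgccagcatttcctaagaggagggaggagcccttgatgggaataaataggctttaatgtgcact
Chil1, chr1:134181906-134182155, plus strand: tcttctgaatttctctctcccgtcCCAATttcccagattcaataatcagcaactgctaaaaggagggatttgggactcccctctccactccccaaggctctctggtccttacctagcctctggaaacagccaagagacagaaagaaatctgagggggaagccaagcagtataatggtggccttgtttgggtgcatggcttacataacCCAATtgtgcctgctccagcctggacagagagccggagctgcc
Gfap, chr11:102897201-102897450, minus strand: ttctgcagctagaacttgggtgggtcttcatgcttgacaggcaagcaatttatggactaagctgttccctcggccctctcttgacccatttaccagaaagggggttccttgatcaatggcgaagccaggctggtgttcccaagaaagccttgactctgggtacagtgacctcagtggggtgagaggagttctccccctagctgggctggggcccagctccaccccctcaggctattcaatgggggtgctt

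These windows were searched for STAT (TTCNNNGAA), AP-1 (TGANTCA), CRE (TGACGTCA) and CCAAT letters on both strands and for TATAAA on the gene's strand. The Chil1 window held CCAAT at 2 places, starting 226 and 43 bases before the start, a motif present in 33.8% of 32851 promoter windows of the same length. The Serpina3n and Gfap windows held none of these letters, and the Chil1 window none of the other motifs. In all promoters the shares were 7.02% for STAT, 6.75% for AP-1, 1.55% for CRE and 7.59% for TATAAA. TTCNNNGAA and TGACGTCA were in no window of the 10 genes, and TGANTCA was in 1, upstream of the first of 2 Cp starts.

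Lcn2 (chr2:32384633-32388252, minus strand) had the highest fold change of the 10 together with the widest spread. It had 1, 126 and 73 reads in the controls and 290, 539 and 68 in the AAV-A2A libraries (0.0250, 3.74 and 1.91 against 8.04, 12.7 and 1.51 CPM). A2A-313 was below GFP-306 and GFP-307, so the groups overlapped. The log2 FC of 1.98 had an SE of 1.17 and an adjusted p of 0.559, and no alternative called it. Lcn2 is also a known granule protein of neutrophils. The summed level of 6 neutrophil markers (Ngp, S100a8 and others) was 0 to 3.88 CPM in ACSA-2 libraries and exactly 0 in GFP-306, A2A-309 and A2A-310, the libraries in which Lcn2 was highest. These sums are near the floor, and the part of neutrophils in the level of Lcn2 was not tested.

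Cp (chr3:19957054-20009145, plus strand) did not differ by vector in ACSA-2 cells beyond its spread. It was 47.5, 44.5 and 35.1 CPM in the controls and 34.8, 63.5 and 29.5 CPM with AAV-A2A. A2A-310 was the highest and A2A-313 the lowest of all 6. Its log2 FC of 0.01 (SE 0.30, adjusted p = 0.996) turned to -0.40 without A2A-310. Cp overlaps Hps3 on the opposite strand, and since the strand setting of the counting is not stated in the sources used here, reads of the shared part are uncertain.

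Of the intermediate filaments, Gfap (ENSMUSG00000020932, chr11:102887336-102900912, minus strand) was 832, 1099 and 1252 CPM in GFP-303, GFP-306 and GFP-307. With AAV-A2A it was 1559, 1202 and 2402 CPM. A2A-313 was far above the rest, whereas A2A-310 was below GFP-307. For Gfap the log2 FC was 0.70 (SE 0.27, adjusted p = 0.285), with 0.37 without A2A-313 and 0.90 at the most when another library was left out, and none of 14 alternatives called it. Vim (chr2:13573927-13582826, plus strand) was 301, 370.1 and 386 CPM in the controls and 542, 435 and 392 CPM with AAV-A2A. Its groups were separate by a narrow margin, from 386 in GFP-307 to 392 in A2A-313. For Vim it was 0.37 (SE 0.19, adjusted p = 0.457). Gfap overlaps the non-coding gene Gm26668 on the opposite strand.

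Il33 (chr19:29925114-29960718, plus strand) was 79.0, 69.3 and 83.3 CPM in the controls (coefficient of variation 9.27%). It was 109, 105.5 and 152 CPM in A2A-309, A2A-310 and A2A-313, all above the controls. The log2 FC was 0.66 (SE 0.20), the adjusted p was 0.140 with edgeR and 0.0357 with DESeq2, and no other of the 14 alternatives called it (adjusted p up to 0.851). S100b (chr10:76253853-76261159, plus strand) was 247, 273 and 299 CPM against 358, 280.1 and 334 CPM. A2A-310 fell among the controls, and the log2 FC was 0.25 (SE 0.17, adjusted p = 0.648). S100b overlaps Dip2a on the opposite strand. Of 7 other S100 genes, all tested, none was called in ACSA-2 cells (median log2 FC 0.36), and the most abundant, S100a16 and S100a1, had log2 FCs of 0.41 and 0.36.

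Of the receptors, Osmr (chr15:6813577-6874969, minus strand) was the 1 gene of the 10 with lower values in all AAV-A2A libraries. It was 26.9, 45.1 and 29.6 CPM in the controls and 19.4, 10.9 and 17.2 CPM with AAV-A2A. The groups did not overlap, but GFP-306 stood well above the other controls. The log2 FC was -1.10 (SE 0.31), and the adjusted p was 0.114 with edgeR, 0.107 with limma-voom and 0.0151 with DESeq2. Cd44 (chr2:102811141-102901665, minus strand) was low throughout, with 6.98, 6.47 and 4.53 CPM against 13.3, 6.95 and 7.11 CPM. Only A2A-309 was clearly above the controls (log2 FC 0.61, SE 0.41, adjusted p = 0.635). Cd44 overlaps the small nuclear RNA gene Gm23731 on the opposite strand.

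Among 17 ligands, co-receptors and signal carriers of these proteins, 14 could be tested in ACSA-2 cells, 2 fell and none rose (median log2 FC -0.28, with 3.19% of all genes tested called lower and 0.176% higher). Both belong to the pathway of Osmr, but the list also held other genes of this pathway, and none of those was called. Il6st, the gp130 subunit, was 84.1, 70.0 and 87.5 CPM in the controls and 31.2, 31.7 and 28.8 CPM with AAV-A2A (log2 FC -1.40, SE 0.19, adjusted p = 0.00421), and it passed with each library left out (adjusted p 0.0159 to 0.0242). Stat3, the transcription factor downstream, was 688, 955 and 1063 CPM against 411, 185 and 398 CPM (log2 FC -1.45, SE 0.31, adjusted p = 0.0334). The Stat3 call was lost when any 1 of the 6 libraries was left out (adjusted p 0.0546 to 0.135). The ligand gene Osm was at 0.0250 to 2.91 CPM in ACSA-2 libraries and 19.3 to 78.0 CPM in CD11b libraries. The most abundant tested genes of this list beside Stat3 included Slc22a17, a lipocalin receptor, with a log2 FC of -0.43 (adjusted p = 0.394).

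Called genes in other lists of astrocyte reactivity stand against 0.176% higher and 3.19% lower over all genes tested in ACSA-2 cells. Of 6 further markers of reactivity in general, all tested, Timp1, an inhibitor of matrix metalloproteinases, rose from 0, 0.326 and 0.367 CPM (0, 11 and 14 reads) to 11.6, 5.01 and 6.84 CPM (log2 FC 5.07, SE 1.03, adjusted p = 0.0263), although this passed in just 1 of the 6 fits without a library (adjusted p 0.0168 to 0.139). None of 11 genes known for the response to lipopolysaccharide was called (median log2 FC 0.20), among them the abundant H2-D1 and Serping1 at 0.13 and 0.20. None of the 9 tested of 12 genes known for the response to ischaemia was called (median 0.37), with S100a10 at 0.20 and Tm4sf1 at 0.06. Of 16 wider markers, Stat3 fell and none rose (median 0.13), with Ntrk2 and Mt1 at 0.11 and 0.09. Of the 14 astrocyte identity genes, Glul (glutamine synthetase) fell with a log2 FC of -1.83 (adjusted p = 0.00386), and so did Atp1b2, a sodium pump subunit, at -0.95 (adjusted p = 0.0294, and 0.0284 to 0.127 with 1 library left out). The median of the identity list was -0.02, close to that of all genes.

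Without the receptor vector, 7 of the 10 genes were higher in ACSA-2 than in CD11b libraries and none was called lower. Over 18602 genes tested in the joint fit of all 12 libraries, 12.3% were called higher and 14.4% lower in ACSA-2 cells. In the AAV-GFP libraries, the log2 FC was 5.75 (SE 0.71) for Gfap, 5.14 (SE 0.38) for Serpina3n, 4.60 (SE 0.56) for Il33 and 4.15 (SE 0.46) for S100b, at adjusted p-values of 9.14e-06 to 0.000231. It was smaller for Chil1 (2.74, SE 0.47, adjusted p = 0.00164), Osmr (1.95, SE 0.39, adjusted p = 0.00426) and Vim (1.42, SE 0.33, adjusted p = 0.00928). Cp and Cd44 did not pass (0.53 and 0.55, adjusted p = 0.253 and 0.480), and Lcn2 had a log2 FC of -3.58 (SE 1.24, adjusted p = 0.0520). The groups were without overlap for 9 of the 10 genes, all but Cd44, against 48.1% of all genes tested. The astrocyte identity list had 13 of 14 genes called higher and a median log2 FC of 5.14, while the median of the 10 markers was 2.35.

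Lcn2 passed as lower in ACSA-2 cells without GFP-2329 (adjusted p = 0.0477), with DESeq2 (0.00549) and without the 3 choroid-rich libraries (0.0288). Osmr did not pass without those 3 libraries (log2 FC 1.73, adjusted p = 0.0677). With the choroid-rich libraries left out, the log2 FC was 6.84 for Gfap, 5.85 for Il33 and 3.96 for Chil1, so that these genes were further apart between the fractions. Compared in the AAV-A2A libraries of the same fit, Chil1 and S100b were at 4.65 and 6.15, and Osmr no longer passed (0.67, adjusted p = 0.174). The AAV-A2A contrast shares its estimate of spread with the AAV-GFP one.

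Counts in the other lists stand against 12.3% higher and 14.4% lower over all genes tested between the fractions. Of the S100 genes beside S100b, 5 of 7 were called higher in control ACSA-2 cells and none lower (median log2 FC 2.69). Of the 11 genes known for the response to lipopolysaccharide, 1 was called higher and 6 lower (median -1.48), many of them immune genes such as the class I histocompatibility gene H2-D1. The 12 ischaemia genes gave 3 higher and 3 lower, the 16 wider markers 6 higher and 1 lower, and the 6 general markers 1 higher and none lower. Of the 15 tested partners, 2 were higher and 5 lower. Of the chitinase family, 4 genes could be tested and Chil3, a myeloid gene, was called lower (0 to 0.0786 CPM in ACSA-2 and 6.55 to 39.1 CPM in CD11b controls). No gene of these lists was called by vector in CD11b cells.

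**Figure D2:**
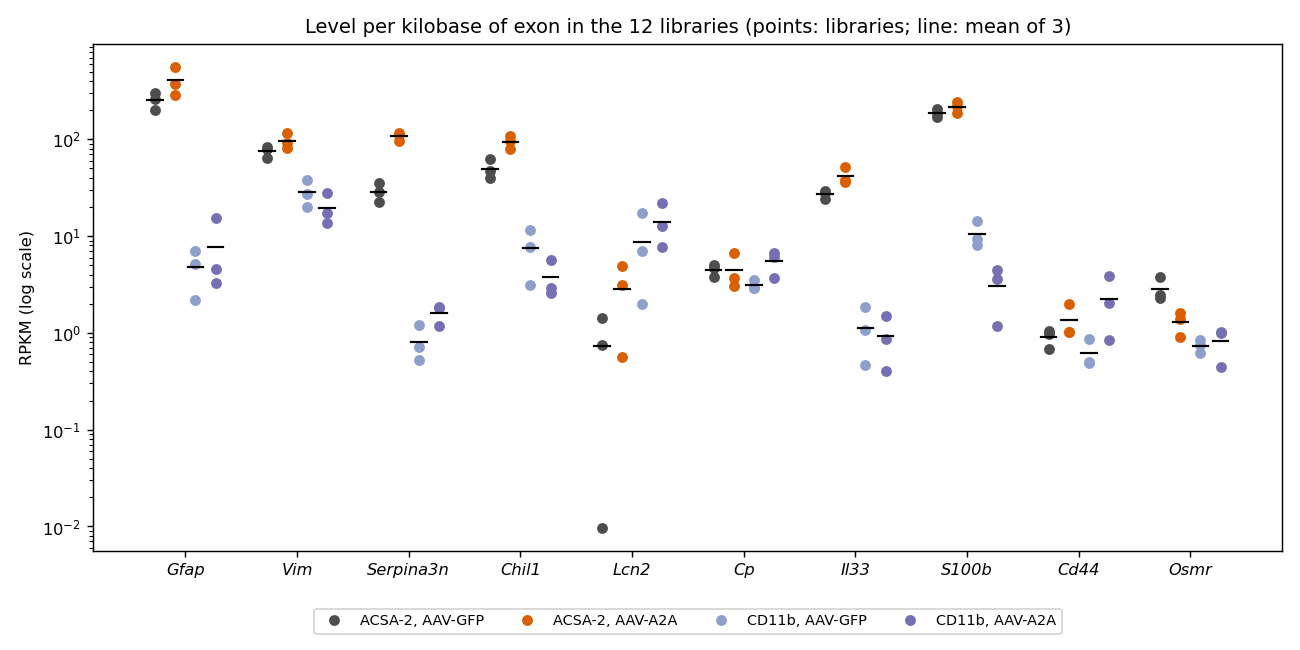
RPKM (log axis) of the 10 genes in the 12 libraries, by fraction and vector. Points are libraries and lines the mean of 3. Gfap, Serpina3n, Il33 and S100b lie more than a factor of 10 apart between the fractions, Cp, Cd44, Osmr and Lcn2 overlap between them when all groups are taken, and Lcn2 has its higher means in CD11b cells.

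Per kilobase of exon, Gfap was the most abundant of the 10 in control ACSA-2 libraries (256 ± 51.0 RPKM, SD, n = 3), followed by S100b (187 ± 17.9). The ranges of these genes overlapped. Vim (75.5 ± 9.51 RPKM) and Chil1 (49.7 ± 11.3) came next and were apart from their neighbours, and Serpina3n (28.7 ± 6.33) and Il33 (27.2 ± 2.65) overlapped. Cp, Osmr, Cd44 and Lcn2 followed at 4.50 to 0.730 RPKM. With AAV-A2A, Serpina3n moved from the fifth to the third place (107 ± 10.7 RPKM), where its range overlapped with that of Vim (96.1 ± 17.6), and Vim with Chil1 (94.2 ± 14.3). Osmr moved from the eighth to the last place (1.30 ± 0.366 RPKM), level with Cd44 (1.35 ± 0.552). These places rest on the length used: with the longest transcript in place of all exons, Serpina3n moved from the sixth to the fifth place (107 RPKM, below Vim at 156 and Chil1 at 144) and Osmr from the eighth to the ninth (2.87 RPKM, above Cd44 at 1.62). In control CD11b libraries the order was another, led by Vim (28.3 ± 8.79 RPKM), with Gfap in the fifth place (4.75 ± 2.40) and Serpina3n in the eighth (0.811 ± 0.349).

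In CD11b libraries none of the 10 genes was called between AAV-A2A and AAV-GFP, and edgeR called 0% of 16949 genes (0 genes, and 2704 at an unadjusted p under 0.05). DESeq2 called 502 genes and limma-voom 0, in both cases without any of the 10. The median log2 FC was 0.39 over the 10 genes and -0.05 over all genes. The groups were without overlap for 2 of the 10, Cp and S100b, against 23.4% of all genes tested. Without the choroid-rich libraries none of the 10 was called either (adjusted p of 0.965 or more). The log2 FC there was 1.52 for Serpina3n, 0.45 for Cp, 1.43 for Cd44, -0.42 for Vim, -0.25 for Lcn2 and -0.21 for Osmr, and those of Gfap, S100b, Chil1 and Il33 are given with these genes.

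**Figure D3:**
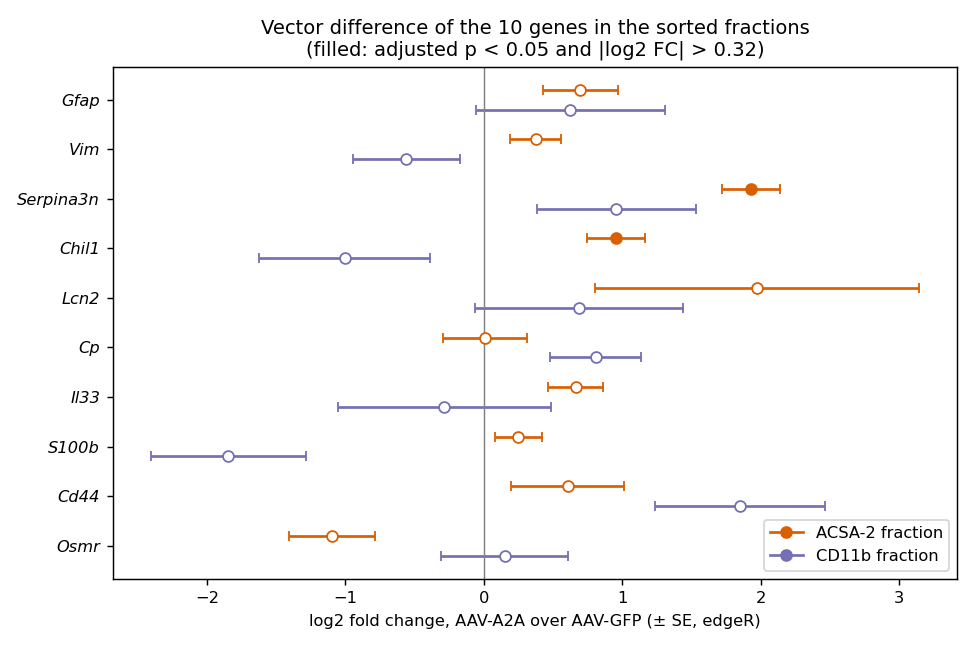
Log2 FC of AAV-A2A over AAV-GFP with its SE from edgeR, for each gene in ACSA-2 cells (orange) and CD11b cells (purple). Filled points passed both thresholds. In ACSA-2 cells these are Serpina3n (1.93) and Chil1 (0.95), and none is filled in CD11b cells, where the SEs go from 0.33 to 0.77.

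Serpina3n was at 1.56, 2.53 and 1.04 CPM in GFP-2328, GFP-2329 and GFP-2331 and at 2.34, 3.62 and 4.01 CPM in A2A-2343, A2A-2344 and A2A-2347. The groups overlapped through GFP-2329 and A2A-2343, and the log2 FC was 0.96 (SE 0.57, adjusted p = 0.439). Its level in CD11b cells was a small part of that in ACSA-2 cells under either vector. Gfap was 22.6, 30.1 and 8.96 CPM with AAV-GFP and 18.3, 62.0 and 15.0 CPM with AAV-A2A, with A2A-2344 far above the others (log2 FC 0.63, SE 0.68, with -0.32 without A2A-2344 and 2.17 without the choroid-rich libraries, which leaves GFP-2331 against A2A-2343 and A2A-2344). The summed astrocyte identity genes in the same order were 1746, 1608 and 1141 CPM and 1004, 826 and 1125 CPM, lowest in A2A-2344. Glul held a larger part of this sum in some libraries than in others, at 451, 585 and 667 CPM and 637, 213 and 188 CPM. Without Glul, A2A-2344 was not the lowest and was above GFP-2331 and A2A-2343. Aldoc, also of this list, was 158, 152 and 67.2 CPM and 42.5, 82.2 and 38.6 CPM. The part of astrocytes in the value of Gfap was not tested.

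S100b was 14.6, 21.6 and 11.5 CPM in the CD11b controls and 5.07, 6.34 and 1.90 CPM with AAV-A2A, so every AAV-A2A library was below every control. The log2 FC was -1.85 (SE 0.56, unadjusted p = 0.0137 in the edgeR model, adjusted p = 0.280), and -1.01 without the choroid-rich libraries. The summed markers of red cells, ependymal cells, neurons and endothelial cells were also lower in every AAV-A2A than in every control CD11b library. The summed astrocyte identity genes were too, but by a narrow margin. The nearest sums were 1141 CPM in GFP-2331, with 667 CPM from Glul, and 1125 CPM in A2A-2347, with 188 CPM from Glul. Without Glul, GFP-2331 was thus below A2A-2347. The log2 FCs of the 14 identity genes went from -1.21 to 0.85 (median -0.50), and Glul and Aldoc each overlapped between the groups. The part of all these cells in the value of S100b was not tested. Cp was the reverse, at 29.4, 28.7 and 32.5 CPM against 33.7, 55.1 and 69.9 CPM, with A2A-2343 just above the controls (log2 FC 0.81, SE 0.33, adjusted p = 0.306). Cd44 was 3.57, 3.40 and 5.63 CPM against 24.9, 5.52 and 15.0 CPM. Here A2A-2344 was level with GFP-2331 and the other AAV-A2A libraries were high (log2 FC 1.85, SE 0.61, adjusted p = 0.281).

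Chil1 and Il33 were higher in every choroid-rich than in every choroid-poor CD11b library. This split is not particular to these genes, and the share of all genes with it was not counted. Ntrk2, for example, was 476, 386 and 430 CPM in GFP-2328, GFP-2329 and A2A-2347 and 39.4, 21.5 and 44.2 CPM in GFP-2331, A2A-2343 and A2A-2344. Chil1 was 34.1, 21.9 and 17.4 CPM in the choroid-rich GFP-2328, GFP-2329 and A2A-2347 and 8.52, 6.87 and 7.84 CPM in GFP-2331, A2A-2343 and A2A-2344. Il33 was 5.56, 3.14 and 4.68 CPM in the former and 1.29, 1.12 and 2.40 CPM in the latter. The vector log2 FC of Chil1 was -1.01 (SE 0.62, adjusted p = 0.449) in all libraries and -0.21 without the choroid-rich ones, and that of Il33 turned from -0.29 to 0.45. This grouping of libraries was seen in the data and has no test.

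Lcn2 in CD11b cells was 19.2, 5.37 and 44.1 CPM with AAV-GFP and 54.7, 19.2 and 36.6 CPM with AAV-A2A (log2 FC 0.69, SE 0.75, adjusted p = 0.676). The 6 neutrophil markers summed to 146, 128 and 526 CPM and to 523, 191 and 73.6 CPM in the same order, and their part in the level of Lcn2 was not tested. GFP-2331 and A2A-2343 were highest in both. Vim went from 61.2 CPM (A2A-2344) to 183 CPM (GFP-2329) and Osmr from 5.18 CPM (A2A-2343) to 12.98 CPM (A2A-2347), with overlapping groups and log2 FCs of -0.56 and 0.15 (adjusted p = 0.497 and 0.889).

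**Figure D4:**
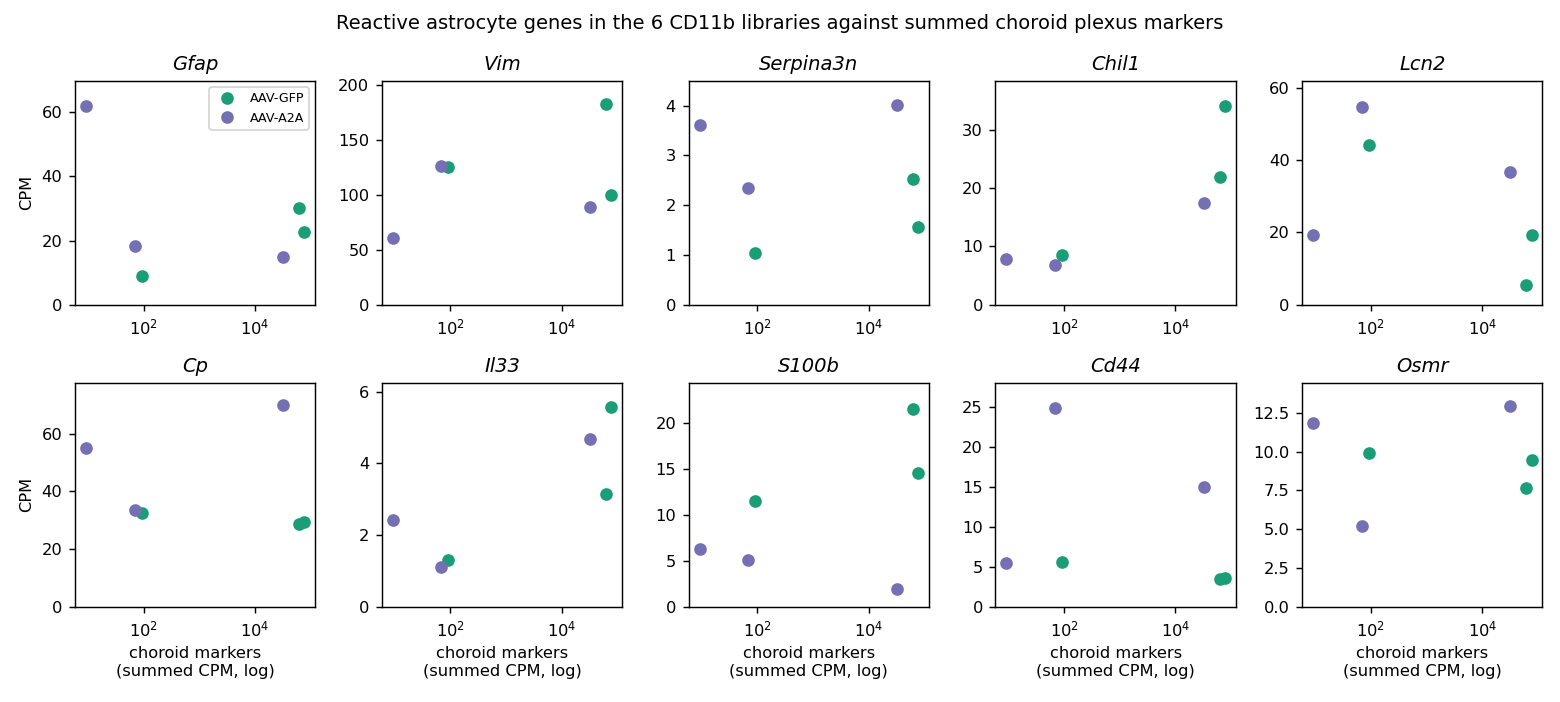
CPM of the 10 genes in the 6 CD11b libraries (linear axis from 0) against the summed CPM of 6 choroid plexus markers (log axis). Green points are AAV-GFP and purple points AAV-A2A libraries. Chil1 is above 17 CPM in the 3 libraries on the right and below 9 CPM in the 3 on the left, whereas S100b is split by vector, with all AAV-A2A points below the AAV-GFP points.

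Whether the vector difference itself differed between ACSA-2 and CD11b cells was tested as an interaction in the joint fit, which called 0.403% of 18602 genes and none of the 10. The difference of the log2 FCs, ACSA-2 minus CD11b, was 2.00 (SE 0.58, adjusted p = 0.109) for S100b, 1.92 (SE 0.63, adjusted p = 0.137) for Chil1 and 0.92 (SE 0.45, adjusted p = 0.286) for Serpina3n. For Osmr it was -1.29 (SE 0.54, adjusted p = 0.219), and for the other 6 genes the adjusted p was 0.321 or more. The vector difference of Serpina3n was thus not shown to differ between the fractions. DESeq2 called S100b (adjusted p = 0.0212) and Chil1 (0.0421), and Chil1 also passed without GFP-2331 (0.0277). Without the choroid-rich libraries the differences were 1.21 for S100b and 1.11 for Chil1 (adjusted p = 0.331 and 0.397).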

How the data were processed

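The authors trimmed single-end 50-base reads with cutadapt 1.10, aligned them to mm10 (GRCm38) with STAR 2.5.3 and deposited raw counts per Ensembl gene from htseq-count 0.6.1p1 (unique, unambiguous reads, PCR-amplified, without molecular identifiers, so that any precision from counts covers counting error only). Libraries were grouped from the labels. Each fraction was fitted with edgeR 4.0.16 (quasi-likelihood, TMM, filterByExpr, robust) in R 4.3.3, and the 25442 genes in both tables jointly for fraction and interaction. p-values were Benjamini-Hochberg adjusted over all genes tested and are two-sided. Calls needed an adjusted p below 0.05 and a log2 FC beyond 0.32 in size (interaction, adjusted p only). Alternatives used DESeq2 1.42.0, limma-voom 3.58.1, other scaling and filters, other sets of libraries and each library left out in turn. The tests were tried on simulated data. Gene names, positions and exon lengths were from GENCODE M21, and promoters from RefSeq (all 10 genes matched). The 10 members, the lists and the added alternatives were chosen with earlier results of these data known. All members are named. Of other lists, genes past both thresholds in ACSA-2 cells are named, with the 2 most abundant tested genes, and of marker lists the sum and most abundant gene. Osm, S100a8, Chil3, the example identity genes, Serpina3g and Serpina3c were named after their values were seen. The 25 unnamed empty columns were not used. The labels number the libraries, so p-values measure the spread between these libraries.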

Additional observations from a re-analysis of the deposited data

Results flagged for a closer look

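Il6st, the gp130 subunit that pairs with Osmr, had a vector difference that itself differed between ACSA-2 and CD11b cells by the interaction test (difference of log2 FCs -3.62, SE 0.60, adjusted p = 0.0438). It was lower with AAV-A2A in all 3 ACSA-2 libraries (log2 FC -1.40), and in CD11b cells it was 63.9, 75.1 and 142 CPM with AAV-GFP and 214, 652 and 406 CPM with AAV-A2A (log2 FC 2.18, adjusted p = 0.280). The interaction passed in 2 of the 12 fits without a library (adjusted p 0.00893 to 0.169).

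Cspg4, a marker of oligodendrocyte precursors and pericytes, was flagged by the same test (difference of log2 FCs -3.23, SE 0.55, adjusted p = 0.0438, and 2 of 12 fits without a library). It was 186, 288 and 290.3 CPM in ACSA-2 controls and 70.5, 53.1 and 45.7 CPM with AAV-A2A. Groups had 3 libraries each, too few for the rule on single libraries far from their group.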

How the results depend on the processing

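Of the 10 genes, the number called in ACSA-2 cells was 2, and it was 4 with DESeq2 (Il33 and Osmr in addition), 1 in the fit of all 12 libraries, 1 without GFP-303 and A2A-310, the outermost libraries on the first principal component (chosen after seeing the data), and 1 to 2 with 1 library left out. Serpina3n was called in all of these. In CD11b cells it was 0 throughout. Between the fractions 7 were called, 6 to 8 in the alternatives, and in the interaction 0, with 2 in DESeq2 and 0 to 1 with 1 library left out.

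The sign of a log2 FC that was not called turned in a few cases, and the cause was not tested. For Cp in ACSA-2 cells it was -0.060 with limma-voom, -0.017 in the fit of all libraries, -0.30 without the outermost libraries and -0.40 to 0.21 with 1 left out. In CD11b cells it was -0.032 for Osmr with upper quartile scaling, and without the choroid-rich libraries -0.21 for Osmr, -0.25 for Lcn2 and 0.45 for Il33, with ranges of -0.065 to 0.47 (Osmr), -0.90 to 0.31 (Il33) and -0.32 to 1.00 (Gfap) with 1 left out. Between the fractions in AAV-A2A libraries it was -0.30 for Cp and -0.74 for Cd44. The interaction of Gfap was -0.03, and 0.034 with DESeq2, 0.22 with limma-voom, 0.050 with RLE factors, 0.29 with upper quartile scaling, 0.047 with at least 10 counts in every library and -0.42 to 0.94 with 1 left out.

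Over all genes, 553 were called in ACSA-2 cells, 1277 with DESeq2, 156 in the fit of all libraries, 233 without the outermost libraries and 272 at the least with 1 left out. In CD11b cells it was 0, with 502 in DESeq2 and 3 without the choroid-rich libraries. Between fractions it was 4968 with AAV-GFP and 8557 with AAV-A2A libraries. The interaction called 75 genes, 1740 with DESeq2, 10 with RLE factors, 0 with upper quartile scaling or without the choroid-rich libraries, 345 with the stricter filter and 0 to 1286 with 1 left out. Upper quartile scaling moved the median log2 FC of all genes from 0.02 to 0.12 in ACSA-2 cells, from -0.05 to -0.21 in CD11b cells and from 0.10 to 0.40 in the interaction. No paired analysis was possible because the groups share no replicate numbers. A library left out leaves 2 in its group, and without the choroid-rich libraries AAV-GFP CD11b cells are 1 library, assumed to vary like the others.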

Other observations

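The summed levels of markers of other cells are given here by vector, AAV-GFP first. In ACSA-2 libraries pericyte and smooth muscle markers (mostly Vtn) were 4687 to 4822 and 3587 to 5040 CPM and red cell markers (mostly Hbb-bs) 709 to 1001 and 463 to 993 CPM. Ependymal markers were 963 to 1274 and 414 to 1539 CPM, with Ccdc153 the most abundant in all but A2A-313. Endothelial markers were 446 to 518 and 279 to 536 CPM, with Flt1 the most abundant in the controls and Cldn5 with AAV-A2A. Of the 6 endothelial markers tested, Flt1 was called lower with AAV-A2A and none higher, with 3.19% of all genes tested called lower. Oligodendrocyte markers (mostly Cnp) were 341 to 397 and 333 to 568 CPM and monocyte markers 0.0262 to 2.40 and 0.0886 to 0.260 CPM. Fibroblast markers were 256 to 439 and 227 to 380 CPM, with Dcn the most abundant in all but A2A-310. Neuronal markers were 17.3 to 82.1 and 10.03 to 35.2 CPM, with Snap25 the most abundant in all but GFP-303. Border macrophage markers were 35.4 to 64.9 and 35.5 to 67.6 CPM, with Pf4 the most abundant in all but GFP-306 and GFP-307.

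In CD11b libraries red cell markers were 733 to 4713 CPM with AAV-GFP and 47.3 to 180.1 CPM with AAV-A2A, ependymal markers 143 to 271 and 33.4 to 63.3 CPM, neuronal markers 12.0 to 91.8 and 4.01 to 6.31 CPM and endothelial markers 589 to 1590 and 363 to 496 CPM, without overlap between the groups. Markers of pericytes and smooth muscle were 726 to 1833 and 728 to 1775 CPM, of oligodendrocytes 148 to 269 and 212 to 269 CPM, of oligodendrocyte precursors 40.3 to 65.1 and 55.8 to 127 CPM, of fibroblasts 84.6 to 111 and 41.3 to 136 CPM, of border macrophages 39.8 to 165 and 147 to 237 CPM and of monocytes 7.39 to 37.5 and 12.9 to 56.6 CPM.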
